A study of Raphidocelis subcapitata with 72 samples.

Results

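At 1 h, 99 of 12181 genes of the freshwater green alga Raphidocelis subcapitata set the cultures headed nZVI in the count table apart. They differed there from both magnetite cultures and cultures headed neg, the heading for the particle-free control. Of these genes, 26 were lower and 73 were higher in the nZVI-headed cultures. The genes were chosen on their 1 h values, so their 1 h differences are given as a description with no test. Levels are CPM, the read count scaled to a common library size with edgeR's trimmed mean of M-values, and gaps are differences of log2(group mean CPM + 1). A member had a mean level from 5 to below 1000 CPM over the 6 groups. It also had a gap of at least 0.8 in either direction between nZVI-headed and magnetite cultures, and likewise between nZVI-headed and neg-headed cultures. Its gap between magnetite and neg-headed cultures was below 0.7. The level range kept 7594 genes, of which 177 passed the first gap, 142 also passed the second and 99 passed all 3 limits.

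The study exposed strain ATCC 22662, in mid-log growth, to zero-valent iron nanoparticles (nZVI) or magnetite nanoparticles (nFe3O4), each at 100 mg/L, with particle-free cultures as controls. Messenger RNA was sampled at 1 h and 4 h from 3 biological replicates of each of the 6 groups, as poly(A)-selected stranded libraries read in paired-end mode, with 4 sub-samples per replicate that are taken here as sequencing lanes and summed. The 4 lane columns of magnetite replicate 2 at 1 h were copies of a lane of replicate 1 and were left out, so that group has 2 libraries and 17 libraries remain. These held between 26322767 and 43364641 counts each. Separate inocula for the replicates are not stated, so a p-value covers the spread between these libraries, which may be technical. CPM is a share of a library, in which fewer transcripts of a gene per cell and fewer cells expressing it cannot be told apart. A share also falls when other transcripts rise.

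The names control and nZVI are exchanged between deposited tables. Each of the 12 libraries headed nZVI or neg in the count table matched best, over 49 genes of the authors' transformed table, the library of the other name from the same hour and replicate. Across genes r was 0.944 to 0.991 under the other name and -0.779 to 0.432 under the library's own. The groups are therefore called nZVI-headed and neg-headed after the count table, where neg stands for the particle-free control. If the names in the other tables are the true ones, the 99 genes set the particle-free cultures apart from both iron treatments. Each difference given here between nZVI-headed and neg-headed cultures then turns round. The comparison of nZVI-headed with magnetite cultures would then set control against magnetite, and that of magnetite with neg-headed cultures would set magnetite against nZVI. The comparison of nZVI-headed cultures with the mean of the others would set control against both particles.

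Iron is a cofactor of photosynthetic electron carriers, and green algae take it up through regulated ferric reductases, ferroxidases and permeases, as worked out in Chlamydomonas reinhardtii. Free ferrous iron reacts with hydrogen peroxide to give hydroxyl radicals, so that excess iron is an oxidative stress. Zero-valent iron corrodes in water and releases ferrous iron, whereas magnetite is a mixed-valence oxide that dissolves slowly. Neither names nor products accompany the locus identifiers in the files, so the 99 genes could not be ordered by function and no role is given to any of them. Among their locus numbers were 3 pairs of consecutive numbers, each made of 2 genes of the higher set.

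The 26 lower genes separated the cultures in every 1 h library. They lay below magnetite cultures by 0.80 to 1.56 log2 units, with a median gap of -0.90, and below neg-headed cultures by 0.81 to 2.13, with a median of -1.13. The gap between magnetite and neg-headed cultures had a median of -0.19. For 26 of 26 genes all 3 nZVI-headed libraries lay below all 2 magnetite and all 3 neg-headed libraries, against 9.22% of the 11841 genes tested, a count that the rule favours and from which nothing is read. Taken singly, 17.1% of genes tested lay below the magnetite libraries and 24.9% below the neg-headed libraries in this way. Their summed level was 587, 529 and 450 CPM in the nZVI-headed libraries, 999 and 1094 CPM in the magnetite libraries, and 1078, 1195 and 1190 CPM in the neg-headed libraries. Every nZVI-headed sum was therefore below every other sum of that hour. Mean levels of single genes ran from 6.56 to 91.8 CPM, with a median of 21.3 CPM. Magnetite cultures lay between the other groups for 21 of the 26 genes, against 3827 of the 7495 other genes of the level range. The rule makes nZVI-headed cultures the extreme group in the members but not in other genes, so nothing is read from this.

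**Figure D1:**
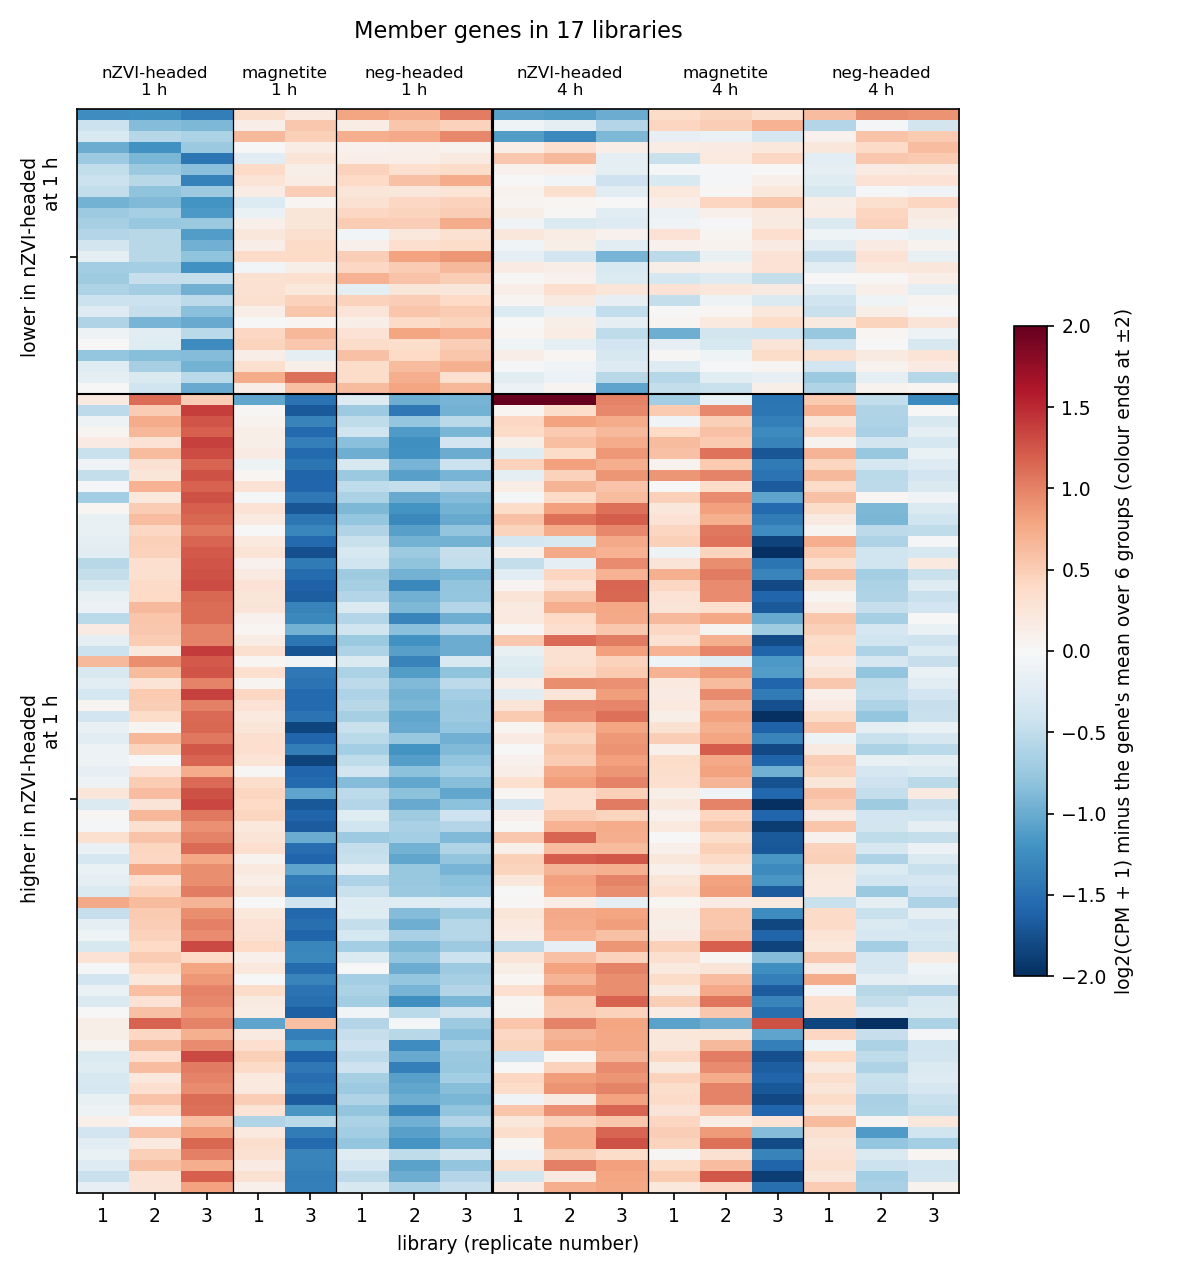
Each row is 1 of the 99 genes and each column 1 of the 17 libraries, with the nZVI-headed, magnetite and neg-headed libraries of 1 h to the left of those of 4 h. Colour gives log2(CPM + 1) minus the gene's mean over the 6 groups. The 26 lower genes have negative values in all 3 nZVI-headed libraries of 1 h, some too near 0 to show as blue (-0.0012 for RSUB_10642 in replicate 1). The higher genes have their lowest value of the hour in magnetite replicate 3 for 67 of 73 genes at 1 h and 69 of 73 at 4 h.

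RSUB_12574 had the widest gap of the lower genes, taking the smaller of a gene's gaps to the other groups. It stood at 12.1, 12.3 and 10.9 CPM in the nZVI-headed libraries of 1 h, at 38.4 and 34.6 CPM in the magnetite libraries and at 52.5, 50.4 and 61.9 CPM in the neg-headed libraries. The groups did not overlap, and magnetite lay between the others. RSUB_05494 was the next by this order. It stood at 13.3, 9.53 and 9.24 CPM in the nZVI-headed libraries, at 20.2 and 27 CPM with magnetite and at 20.3, 27.2 and 25.5 CPM in the neg-headed libraries. Its magnetite and neg-headed libraries overlapped, and both lay above the nZVI-headed ones.

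The 73 higher genes were of another kind: their mean levels set the nZVI-headed cultures apart, but most of their single libraries did not. The gap to magnetite ran from 0.80 to 1.89 log2 units with a median of 0.90, and the gap to neg-headed cultures from 0.81 to 1.72 with a median of 1.30. Magnetite group means lay between those of the other groups for 70 of the 73 genes, against 3827 of the 7495 other genes of the level range. The magnetite mean stood a median of 0.34 above neg-headed cultures. All 3 nZVI-headed libraries lay above all 3 neg-headed libraries for 69 of the 73 genes, against 27.7% of genes tested, but above both magnetite libraries for 9 of 73, against 17.6%. The same 9 lay above every magnetite and neg-headed library, against 9.72% of genes tested. The rule used these values, so nothing is read from these shares, nor from the count of genes with magnetite between the others. Mean levels of the higher genes ran from 5.12 to 268 CPM, with a median of 15.1 CPM.

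The magnetite libraries stood far apart from each other in these genes. Summed over the 73 genes, the level was 2331, 3329 and 5493 CPM in nZVI-headed replicates 1, 2 and 3, 3021 and 875 CPM in magnetite replicates 1 and 3, and 1747, 1304 and 1527 CPM in the neg-headed replicates. Magnetite replicate 1 thus lay within the nZVI-headed range and magnetite replicate 3 below every neg-headed library. Gene by gene, magnetite replicate 1 lay within the nZVI-headed range for 63 of 73 genes and above all neg-headed libraries for 70 of 73. The share of other genes that did so was not computed, and nothing is read from these 2 counts. Magnetite replicate 3 was the lowest of the 8 libraries of that hour for 67 of 73, against 15.9% of the 7495 other genes of the level range. Replicate 1 exceeded replicate 3 by a median of 1.69 log2 units over the higher genes, against -0.15 over the lower genes and -0.01 over the other genes of the level range. The rule used these 1 h values and favours genes with a low magnetite mean, so the comparisons with other genes are a description.

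**Figure D2:**
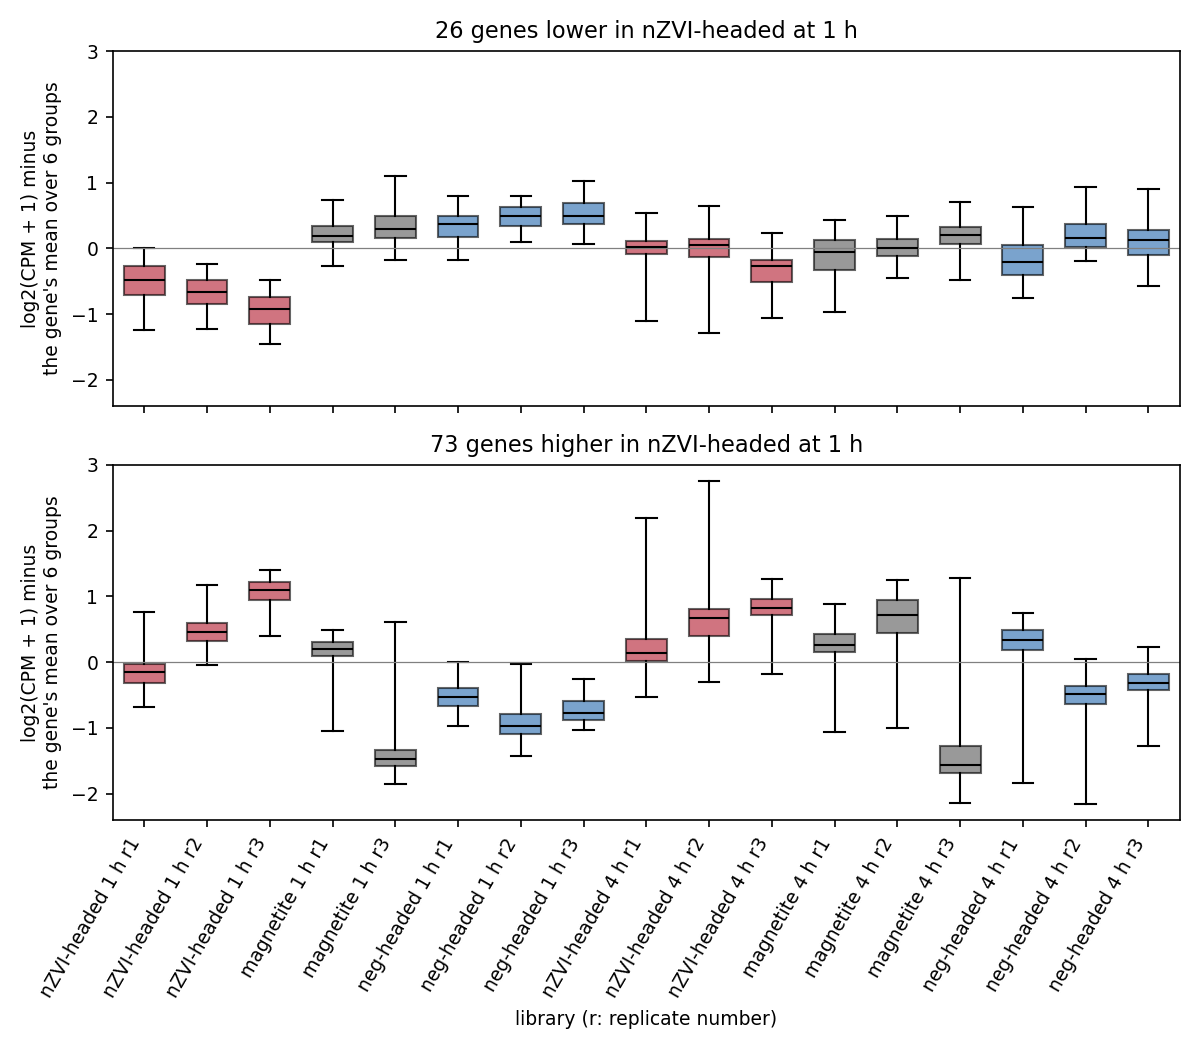
The boxes show, for each of the 17 libraries, the quartiles and the full range over genes of log2(CPM + 1) minus the gene's mean over the 6 groups, for the 26 lower genes above and the 73 higher genes underneath. The median of the higher genes is -1.48 in magnetite replicate 3 at 1 h and -1.56 at 4 h, against 0.20 and 0.26 in magnetite replicate 1.

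Set against magnetite replicate 1 alone, the nZVI-headed mean of the higher genes had a median gap of 0.31, and 4 of 73 genes kept a gap of 0.8 or more. Set against replicate 3 alone, the median gap was 2.01 and 71 of 73 genes reached 0.8. The lower genes had median gaps of -0.85 and -0.97 to replicates 1 and 3, with 17 and 23 of 26 genes at 0.8 or beyond. The rule applied without magnetite replicate 3 found 24 genes, of which 21 were among the 99 (17 lower and 4 higher). Applied without magnetite replicate 1 it found 185 genes, 51 of them among the 99.

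**Figure D3:**
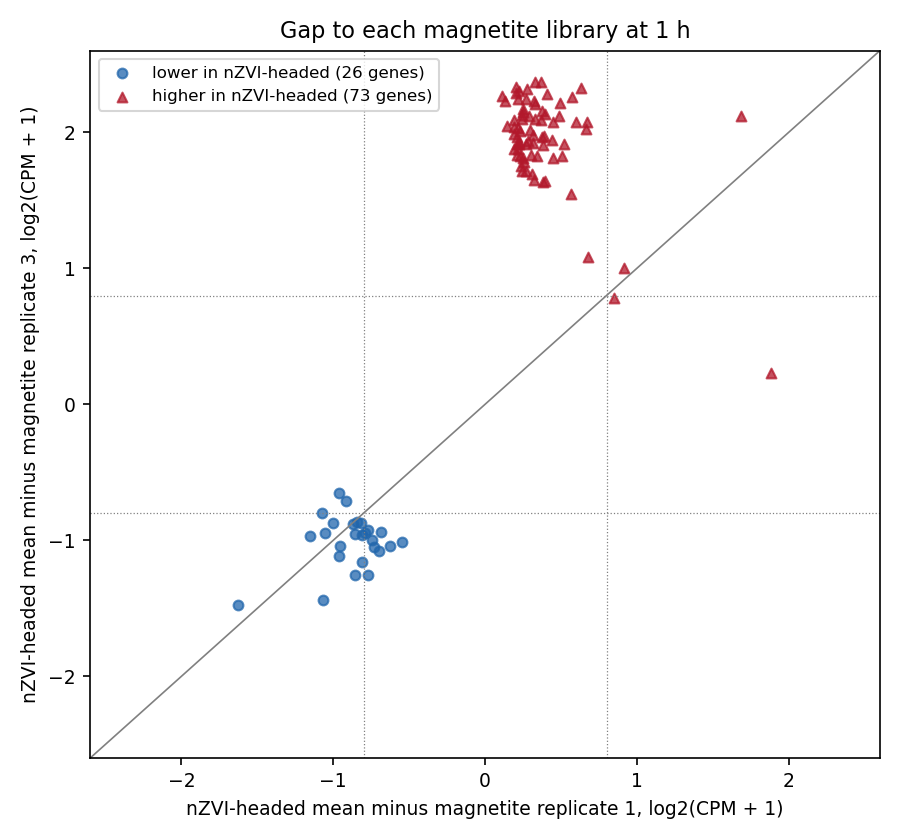
Each point is 1 gene, with the gap between the nZVI-headed mean and magnetite replicate 1 across and the gap between the nZVI-headed mean and magnetite replicate 3 upwards, both in log2(CPM + 1) at 1 h. Dotted lines mark gaps of 0.8 in either direction. The lower genes lie along the diagonal, with medians of -0.85 and -0.97, and most higher genes lie well above it, with medians of 0.31 and 2.01.

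The nZVI-headed libraries also differed among themselves in the higher genes. Replicate 3 was the highest of the 8 libraries of 1 h for 69 of 73 genes, against 24.5% of the other genes of the level range. Replicate 1 was the lowest of the nZVI-headed libraries for 71 of 73, a count for which the share of other genes was not computed. The coefficient of variation between the nZVI-headed libraries had a median of 44.4% over the higher genes, 17.9% over the lower genes and 11.9% over the other genes. The rule used these 1 h values too, so these comparisons with other genes are a description. Left out of the rule, nZVI-headed replicate 3 brought the number of genes to 25, of which 17 were among the 99, and nZVI-headed replicate 1 brought it to 228, of which 98 were. Within groups, 1 axis held 93.6% of the variance of the higher genes, 69.9% of that of the lower genes and 45.9% of that of the other genes tested. The 1 h libraries that chose the genes are part of this variance, so the shares are a description, and single higher genes correlated with the mean profile of their set over the 17 libraries from 0.05 to 0.99. Depth, with totals of 33337812 and 38347711 counts, and the share of the 10 most abundant genes, at 20.3% and 21.9%, were near one another in magnetite replicates 1 and 3, and their part in this spread was not tested.

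RSUB_01054 had the widest smaller gap of the higher genes. It stood at 4.86, 10.2 and 6.26 CPM in the nZVI-headed libraries of 1 h, at 1.52 and 0.863 CPM with magnetite and at 3.33, 1.63 and 1.71 CPM in the neg-headed libraries. The nZVI-headed libraries lay above all others. RSUB_04449, the next by this order, stood at 6.68, 14.6 and 27.5 CPM in the nZVI-headed libraries, at 10.1 and 2.44 CPM with magnetite and at 5.61, 3.07 and 4.68 CPM in the neg-headed libraries. Here magnetite replicate 1 lay within the nZVI-headed range and replicate 3 below all neg-headed libraries, as for most of the set. The 9 higher genes with no overlap with either other group still had a median of 0.98 log2 units between magnetite replicates 1 and 3.

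**Figure D4:**
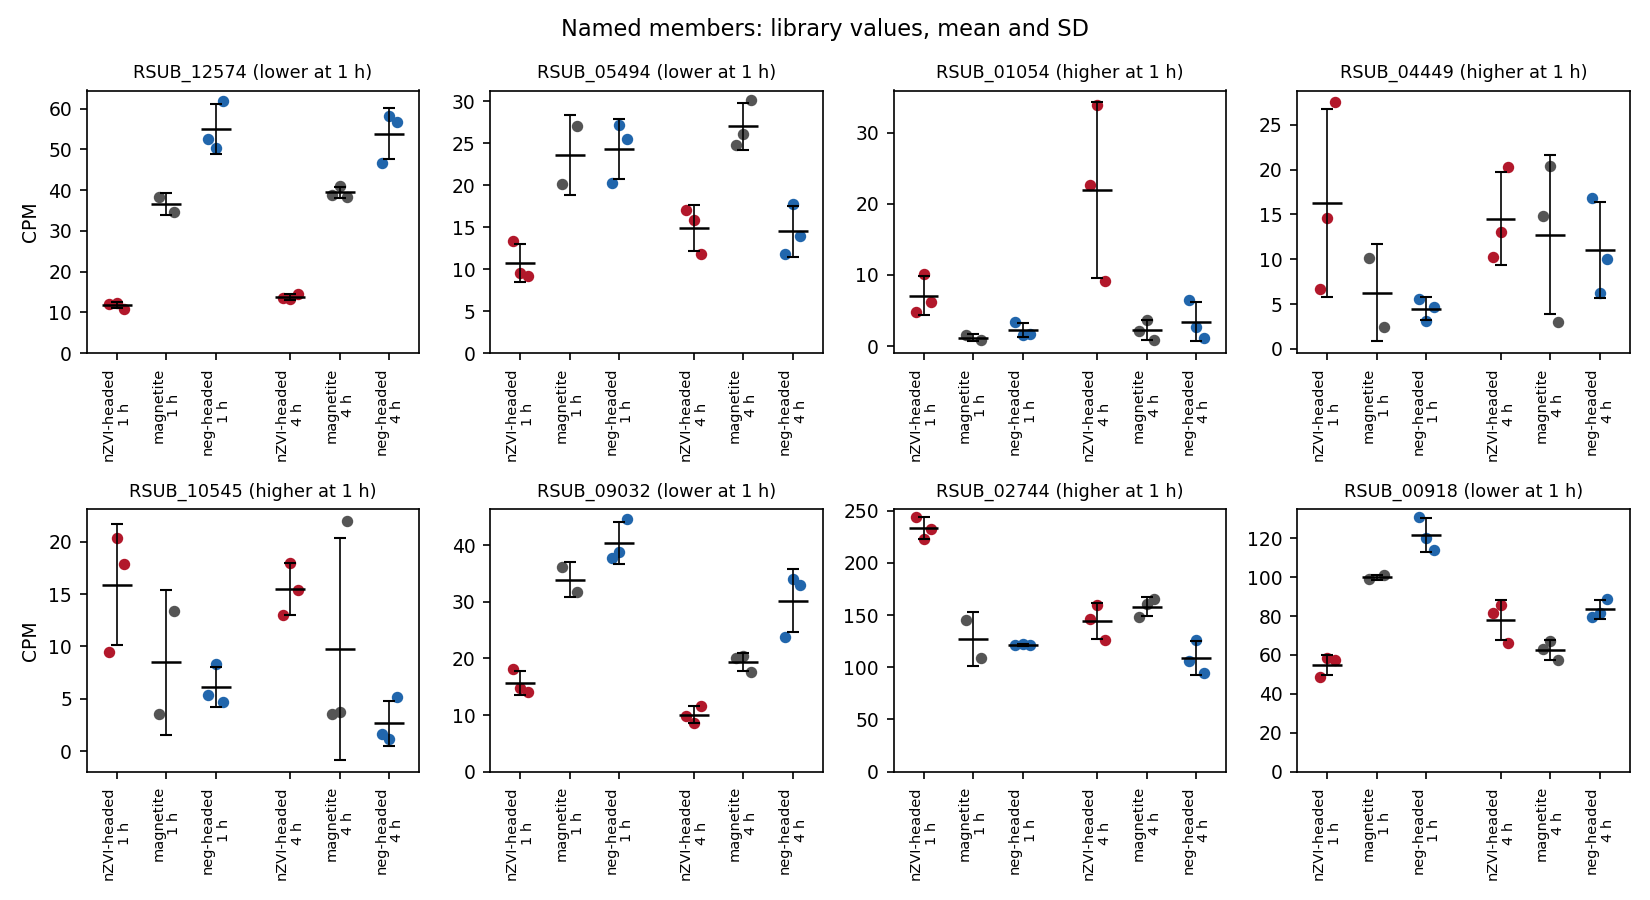
The panels show CPM in each library for the 8 named genes, with the mean and SD of each group, in the order nZVI-headed, magnetite and neg-headed at 1 h and then at 4 h. RSUB_12574 lies between 10.9 and 14.6 CPM in the nZVI-headed libraries and at 34.6 CPM or more in all others, whereas RSUB_04449 has its lowest values, 2.44 and 3.04 CPM, in magnetite replicate 3.

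Other genes followed the same profiles. Over the 6 group means, 86 of the 7495 other genes of the level range had a Pearson correlation of at least 0.95 with the mean profile of the higher genes, and over the 17 libraries 90 did, up to 0.989. For the lower genes the counts were 31 over the groups and 4 over the libraries. Among the members themselves, 56 of 73 higher and 3 of 26 lower genes reached 0.95 over the libraries. These correlations are descriptive and share libraries and depth. By the same limits with the groups turned round, 11 genes set the magnetite cultures apart from both others, and none of the 99 can be among them. Magnetite replicate 3 was the lowest library of 1 h for 7 of those 11, and replicate 1 exceeded replicate 3 by a median of 0.67.

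The 4 h libraries took no part in the 3 gap limits, so differences at 4 h were tested with edgeR (quasi-likelihood, Benjamini-Hochberg adjustment over 11841 genes). The protocol describes cultures sampled at both hours, so a 4 h library may come from the same culture as the 1 h library of its number. Deviations from the group mean correlated across genes between the hours at 0.41, -0.03 and 0.55 for nZVI-headed replicates 1, 2 and 3, at 0.37 and 0.78 for magnetite replicates 1 and 3, and at 0.15, 0.06 and 0.02 for neg-headed replicates 1, 2 and 3. The 4 h values may then not be wholly separate from those the rule used. In the 73 higher genes, magnetite replicate 3 was again the lowest library, here of the 9 libraries of 4 h, for 69 genes, against 16.2% of the other genes. As at 1 h, nZVI-headed replicate 1 was the lowest of its group for 71, and the share of other genes was not computed.

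Against the mean of magnetite and neg-headed cultures at 4 h, 3 of the 99 genes differed, 1 higher and 2 lower, where 3.5% of all genes tested did (2.44% higher and 1.06% lower). RSUB_12574 stood at 13.6, 13.2 and 14.6 CPM in the nZVI-headed libraries of 4 h, at 38.9, 41 and 38.4 CPM with magnetite and at 46.7, 58.1 and 56.7 CPM in the neg-headed libraries. Its log2 fold change was -1.74 (SE 0.10, adjusted p = 1.25e-07 by edgeR), with no overlap, as at 1 h. RSUB_09032 stood at 9.88, 8.59 and 11.6 CPM in the nZVI-headed libraries, at 20.1, 20.5 and 17.6 CPM with magnetite and at 23.8, 34 and 32.9 CPM in the neg-headed libraries. Its change was -1.27 (SE 0.14, adjusted p = 0.000232), again without overlap, and at 1 h had stood at 18.1, 14.8 and 14.1 CPM against 36.1 and 31.7 CPM with magnetite and 37.8, 38.8 and 44.6 CPM in the neg-headed libraries. RSUB_01054 stood at 22.6, 33.9 and 9.21 CPM in the nZVI-headed libraries, at 2.18, 3.69 and 0.87 CPM with magnetite and at 6.43, 2.68 and 1.14 CPM in the neg-headed libraries. It was higher by 2.99 (SE 0.48, adjusted p = 0.00405), and its lowest nZVI-headed library lay above the highest of the others.

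**Figure D5:**
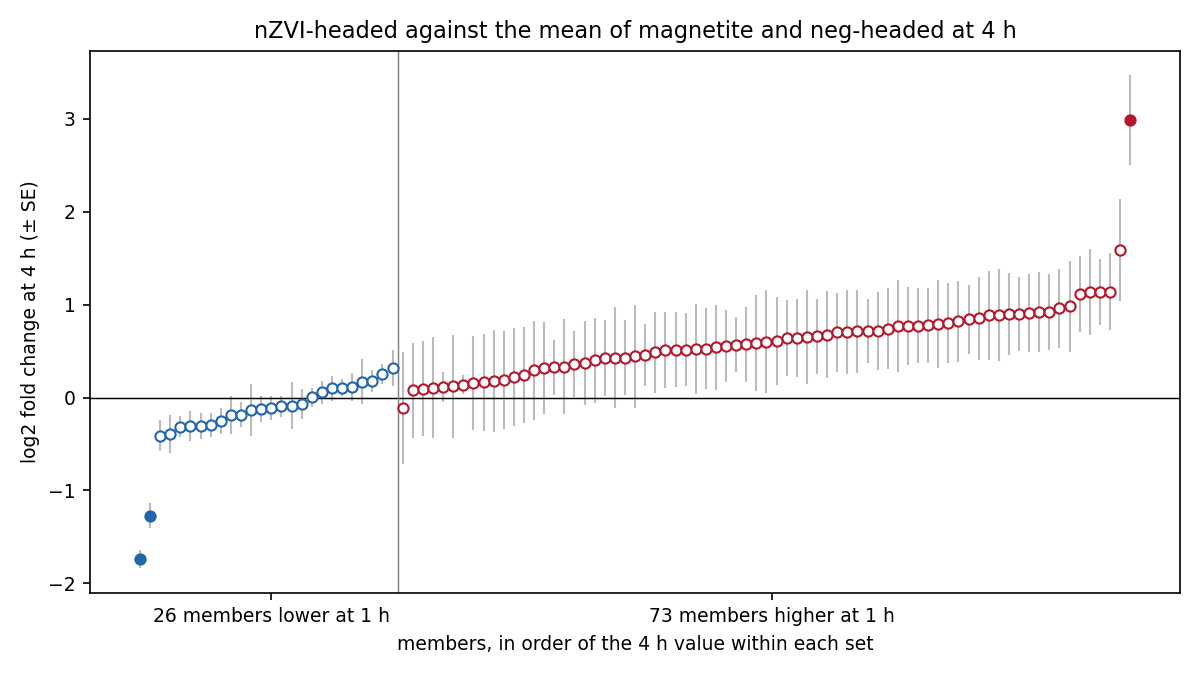
Log2 fold change of nZVI-headed cultures against the mean of magnetite and neg-headed cultures at 4 h, with its SE, for the 26 lower and 73 higher genes, each set in order of the value. Filled points, 2 lower and 1 higher, passed the adjusted threshold. The higher genes lie above 0 for 72 of 73 with wide errors, and the lower genes lie on both sides of 0, with 17 of 26 negative.

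Most of the 26 lower genes no longer separated the cultures at 4 h. Over the whole set the fold change against the mean of the other groups had a median of -0.12 on the log2 scale, against 0.01 for all genes tested, and the nZVI-headed mean was the lowest of the 3 groups for 14 of 26, against 27.8% of the other genes of the level range. All nZVI-headed libraries lay below all others for 3 of 26, where 2.43% of genes tested did so. They lay below the magnetite libraries for 5 of 26, against 6.92%, and below the neg-headed libraries for 6 of 26, against 19.8%. The summed level was 776, 798 and 616 CPM in the nZVI-headed libraries of 4 h, 710, 791 and 851 CPM with magnetite and 686, 921 and 865 CPM in the neg-headed libraries, and the groups overlapped. Between the hours, the levels at 4 h exceeded those at 1 h by a median of 0.54 log2 units in nZVI-headed cultures, while the median was -0.17 with magnetite and -0.42 in neg-headed cultures. The 1 h levels chose the genes, so this change is a description only.

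Of the 73 higher genes, 1 was called against the mean of the other groups at 4 h, where 2.44% of all genes tested were called higher. The median log2 fold change against the mean of the other groups was 0.60, with 72 of 73 positive, and was 0.38 without magnetite replicate 3 of 4 h. In group means, the nZVI-headed mean was the highest of the 3 groups for 64 of 73, against 26.6% of the other genes of the level range. The higher genes moved nearly together within groups, with 93.6% of their variance on 1 axis. Counts over them are therefore not 73 separate observations, and nothing is read from these counts. The median SE of a single fold change between 2 groups was 0.53 for the higher genes and 0.16 for the lower genes, against 0.18 for all genes tested. All nZVI-headed libraries lay above all others for 3 of 73, where 2.04% of genes tested did so. They lay above the magnetite libraries for 5 of 73, against 4.97%, and above the neg-headed libraries for 24 of 73, against 20.1%. The summed level was 2642, 3785 and 4381 CPM in the nZVI-headed libraries, 2966, 4167 and 888 CPM with magnetite and 3193, 1813 and 1982 CPM in the neg-headed libraries. Magnetite replicates 1 and 2 lay within the nZVI-headed range, and the nZVI-headed mean exceeded the mean of those magnetite libraries by a median of 0.10 log2 units. From 1 h to 4 h the median difference was 0.02 in nZVI-headed cultures, 0.51 with magnetite and 0.60 in neg-headed cultures, a description only.

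In nZVI-headed against magnetite cultures at 4 h, 1 of the 99 genes was called and it was the only one of all 11841 tested, or 0.00845%. This was RSUB_12574, at -1.51 on the log2 scale (SE 0.11, adjusted p = 3.2e-06 by edgeR). At an unadjusted p below 0.05 by edgeR's test, 11 of the 99 genes differed in either direction, against 7.05% of all genes. Of the lower genes, 5 were lower and 3 were higher in nZVI-headed cultures, and of the higher genes 3 were higher. DESeq2 called 4 of the 99 genes, 1 higher and 3 lower, and 0.227% of the genes to which it gave an adjusted p. RSUB_09032, at -0.95 (SE 0.15), had an adjusted p of 0.0725 by edgeR and was not called. Over the higher genes the median fold change was 0.53, against 0.11 without magnetite replicate 3 of 4 h and 0.98 without magnetite replicate 2 of 4 h. Without replicate 3 at both hours the median was 0.11, with RSUB_12574 again the 1 member called, where 0.00837% of all genes were. The lower genes had a median of -0.09.

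In nZVI-headed against neg-headed cultures at 4 h, 5 of the 99 genes differed, 3 higher and 2 lower, where 19.9% of all genes tested did (10.5% higher and 9.39% lower). On the log2 scale RSUB_12574 differed by -1.96 (SE 0.11, adjusted p = 4.11e-08) and RSUB_09032 by -1.59 (SE 0.15, adjusted p = 1.51e-05) by edgeR's test. Upwards, RSUB_01054 differed by 2.67 (SE 0.60, adjusted p = 0.00594) and RSUB_10545 by 2.53 (SE 0.70, adjusted p = 0.0195). RSUB_10545 stood at 13, 18 and 15.4 CPM in the nZVI-headed libraries of 4 h, at 3.55, 3.76 and 22 CPM with magnetite and at 1.65, 1.13 and 5.14 CPM in the neg-headed libraries, so it ran against most of the set in magnetite replicate 3. The third higher gene, RSUB_02744, is named for its place in magnetite against neg-headed cultures. It stood at 146, 160 and 126 CPM in the nZVI-headed libraries, 148, 161 and 165 CPM with magnetite and 106, 126 and 94 CPM in the neg-headed libraries. Its fold change of 0.41 (SE 0.12) had an adjusted p of 0.0243. At 1 h it had stood at 244, 223 and 232 CPM in nZVI-headed libraries, above 145 and 109 CPM with magnetite and 121, 122 and 121 CPM in neg-headed libraries.

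That count moved with a library outside the comparison, which enters the same model. Without magnetite replicate 3 at both hours, 30 of the 99 genes were called in nZVI-headed against neg-headed cultures, 28 of them higher, where 22% of all genes tested were called and 11.8% were called higher. The median SE of the higher genes was then 0.31, against 0.53 with the library, while their median fold change was 0.68, against 0.69, and the cause of the shift was not tested. Against the mean of the other groups, 5 of the 99 were called without it, where 2.6% of all genes were. This library was chosen for leaving out after the data were seen.

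In magnetite against neg-headed cultures at 4 h, which share libraries with the preceding comparisons, 5 of the 99 genes differed, 2 higher and 3 lower, where 23% of all genes tested did (12.3% higher and 10.6% lower). RSUB_09032 differed by -0.64 (SE 0.15, adjusted p = 0.00652) and RSUB_12574 by -0.45 (SE 0.10, adjusted p = 0.00654) by edgeR's test. RSUB_00918, the third lower one and named after its values were seen, stood at 63.1, 67.3 and 57.3 CPM with magnetite and at 79.8, 81.8 and 88.7 CPM in neg-headed libraries, a difference of -0.42 (SE 0.11, adjusted p = 0.0113). It was not called without magnetite replicate 3 (-0.36, adjusted p = 0.0538). RSUB_05494 was higher with magnetite, at 24.8, 26.1 and 30.2 CPM against 11.8, 17.8 and 13.9 CPM in neg-headed libraries, by 0.90 (SE 0.19, adjusted p = 0.00412). Its nZVI-headed libraries of 4 h, at 17, 15.8 and 11.8 CPM, overlapped with the neg-headed ones, unlike at 1 h. RSUB_02744 was higher with magnetite by 0.54 (SE 0.12, adjusted p = 0.00493). Without magnetite replicate 3 at both hours, 8 of the 99 genes were called, against 15.9% of all genes tested.

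The authors' own comparisons list most of these genes at 1 h. The authors' deposited table that sets nZVI against control at 1 h listed 26 of 26 lower genes, each with a positive log2 fold change (median 1.22), and 72 of 73 higher genes, each with a negative one (median -1.35). In the authors' deposited table of magnetite against control at 1 h, the medians were 0.93 over 26 listed lower genes and -0.85 over 72 listed higher genes. The authors' deposited table of nZVI against magnetite at 1 h lists 16 of the lower and 21 of the higher genes. Under the names of those tables it is thus the control that stands apart from both iron treatments in the 99 genes. The values come from the same sequenced cultures, whose 1 h levels chose the genes, so the listing and its direction are no separate evidence. The share of all genes that these comparisons list was not computed, so nothing is read from the counts listed.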

How the data were processed

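Per the file headers, the authors deposited raw gene counts in 72 lane columns, with no normalization. They also deposited 50 genes on a log2 scale (the transformed table), and tables of their own comparisons with log2 fold changes and p-values, per the file headers. Tools in the submitters' processing notes are HISAT2, SAMtools, Trimmomatic, bcl2fastq, bedtools 2.27.1, DESeq and DESeq2. How reads were counted, and on which build and annotation, is not given in the sources used here.

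Each replicate's 4 columns, read as lanes of 1 library though the labels do not use that word, were summed, and the 4 copied lane columns were left out. Group means and gaps were taken with edgeR 4.0.16 (limma 3.58.1, R 4.3.3). Tests at 4 h used its quasi-likelihood test in one model of 6 group means over 17 libraries, with TMM scaling, a low-count filter by group that left 11841 genes and a Benjamini-Hochberg adjusted p below 0.05. All 99 genes passed that filter. The common coefficient of variation between libraries was 0.19. SE was taken from the test statistic. The fit was tested on simulated data. Alternatives included DESeq2 1.42.0, other size factors, lane 1 alone and single libraries left out.

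Members and comparisons were chosen with earlier results of these data known. Named are the 2 genes at each end by the smaller of their gaps at 1 h, and up to 2 called genes in each direction per 4 h comparison. RSUB_00918 was added after its values were seen. Just inside and outside the limits, gaps were 0.8002 and 0.7997 for nZVI-headed minus magnetite, 0.8063 and 0.7919 for nZVI-headed minus neg-headed, and 0.6707 and 0.705 for magnetite minus neg-headed. Replicate numbers were not used to pair libraries across conditions. Deviations of same-numbered libraries from their group means correlated from -0.59 to 0.27 at 1 h and from -0.46 to 0.44 at 4 h. With so few libraries a group, deviations within a group depend on each other, and libraries of different numbers were not compared. The correlations therefore cannot decide whether the numbers pair libraries.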

Additional observations from a re-analysis of the deposited data

How the results depend on the processing

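The number of genes meeting the 1 h limits was 99 and ranged from 24 (without magnetite replicate 3) to 228 (without nZVI-headed replicate 1) when 1 library of that hour was left out. It was 46 with the copied library kept, of which 39 were among the 99. It was 111 with DESeq2's size factors, 122 with a pseudocount of 0.5 and 129 from lane 1 alone, of which 98, 97 and 73 were among the 99. Leaving magnetite replicate 3 out at both hours, chosen after seeing the data, gave 24.

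At 4 h, 1 library at a time was left out, only among the 4 h libraries of the groups compared. Single libraries outside a comparison, which enter the same model, were not left out, so the ranges do not cover them. The called members were 1 to 2 in nZVI-headed against magnetite, where 0.00844% to 0.0338% of all genes tested were called. They were 3 to 5 in nZVI-headed against neg-headed, where 11.6% to 19.2% were. They were 4 to 6 in magnetite against neg-headed, where 14.4% to 24.7% were. In nZVI-headed against the mean of the others they were 3 to 4, where 0.541% to 4.15% were. With all libraries the counts were 1, 5, 5 and 3, against 0.00845%, 19.9%, 23% and 3.5% of all genes. The 2 came without nZVI-headed replicate 3 (0.0338% of all genes). The 3 in nZVI-headed against neg-headed came without nZVI-headed replicate 2 (13.4% of all genes). DESeq2 gave 4 in nZVI-headed against magnetite (0.227% of genes with an adjusted p), and lane 1 alone gave 3 in magnetite against neg-headed (13.1%). Without magnetite replicate 3 at both hours the counts were 1, 30, 8 and 5, against 0.00837%, 22%, 15.9% and 2.6% of all genes. With the replicate number as a block they were 1, 5, 6 and 4, against 0.00845%, 18.2%, 20.6% and 2.41%. Whether the numbers pair these libraries is not known. The causes of these shifts were not tested.

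For the named genes called at 4 h, 178 of 191 recomputed fold changes kept their direction and call, 13 lost the call and 0 changed direction. RSUB_02744 against neg-headed lost it most often (adjusted p up to 0.111), without nZVI-headed replicate 1 or 2 or neg-headed replicate 1 or 3, and with 4 h libraries alone. RSUB_10545 lost it without nZVI-headed replicate 2 or neg-headed replicate 1 or 2 (up to 0.0823). RSUB_00918 lost it without magnetite replicate 3, there and at both hours, or neg-headed replicate 3 (up to 0.0617). From lane 1 alone, RSUB_12574 (0.177) and RSUB_05494 (0.0605) lost it in magnetite against neg-headed. The fit over 17 libraries had 3 libraries a group at 4 h and included the 1 h libraries that chose the genes. Its median SE of a fold change between 2 groups was 0.53 for the higher genes, against 0.16 for the lower genes. What part this had in the number of genes called was not tested.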
